A study of Rattus norvegicus with 3 samples.

Results

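Tubulins are the proteins from which microtubules are built, and 10 genes of the family were followed in the kidney of rats given thallium (Tl). They comprised 3 genes of alpha-tubulin (Tuba1a, Tuba1b and Tuba1c), 6 genes of beta-tubulin (Tubb2a, Tubb2b, Tubb3, Tubb4b, Tubb5 and Tubb6) and Tubg1 of gamma-tubulin. A probe set was a member when the platform annotation gave it a single gene symbol that was in this list. All 10 genes were found, each with 1 probe set, among 15037 genes with a symbol. Total RNA of kidney from male Wistar rats, which the methods describe as 7 weeks old, was hybridized to 3 Clariom S arrays, 1 for each group, namely control, Tl 2 days and Tl 5 days. Control rats had received double distilled water, and the Tl groups had received thallium sulfate intraperitoneally. The sources conflict on the dose, which was 30 mg/kg once in the methods, 30 mg/kg daily in the design text and 40 mg/kg daily in the labels of the samples. Some rats of the Tl 5 days group died before the planned time and were kept in that group, and the number of rats behind each array is not given in the sources used here.

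The labels name spleen as the source of the RNA, whereas the titles and the methods name kidney. On the control array, the median log2 value was 15.24 over 9 proximal tubule genes and 16.68 over 6 genes of the distal nephron. All 11 measured genes of lymphocytes and erythroid cells of the spleen lay at or below 6.83 on every array, a limit below which 95% of 63 spiked ERCC control probe sets fell. The deposited values are log2 signals, so a difference of 1 is a 2-fold difference. With 1 array per group the spread between rats is not known, no difference was tested and no p-value was computed. Both comparisons with control used the same control array. In whole tissue, fewer cells of a type and less RNA per cell cannot be told apart.

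Microtubules are polymers of alpha-tubulin and beta-tubulin heterodimers, and they grow from gamma-tubulin, which nucleates them at the centrosome and at other sites. They form the mitotic spindle, the core of the cilium and the tracks for vesicle transport, and in the epithelium of the renal tubule they run along the axis between the apical and basal membranes. Isotypes of one subunit differ mainly in their acidic carboxyl-terminal tails, which carry many of the modifications of tubulin. Cells also adjust tubulin mRNA to the amount of unpolymerized tubulin, by a decay of the mRNA during its translation that involves the protein Ttc5.

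At 2 days after Tl, 7 of the 10 tubulin genes exceeded control by over 2-fold and 0 lay over 2-fold below it, and at 5 days the numbers were 6 and 0. Among all 15037 genes, 6.03% exceeded control by this limit at 2 days and 4.65% lay below it, against 5.37% and 4.87% at 5 days. Since the 10 genes were chosen with results of these arrays known, their share is not independent of those results. The median log2 difference of the 10 genes from control was 2.18 at 2 days and 1.38 at 5 days, against 0 and 0 for all genes. Tubb5 had the largest difference at both times, 19.7-fold at 2 days and 5.32-fold at 5 days. Most of the genes were lower at 5 days than at 2 days, except Tubb2b, which was higher at 5 days, and Tubg1 and Tubb3, which differed little. The split between higher and lower over all genes depended on the scaling of the arrays. Relative to 8 reference genes, 4.34% were higher and 6.94% lower at 2 days and 3.86% and 6.76% at 5 days, and after centring of the arrays 5.00% were higher and 5.81% lower at 2 days. The numbers of tubulin genes past the limit were 7 and 6 under each of these scalings. The reference genes themselves differed from control, by -0.94 (Sdha) to 0.97 (Hprt1) at 2 days and by -0.49 to 0.63 at 5 days.

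**Figure D1:**
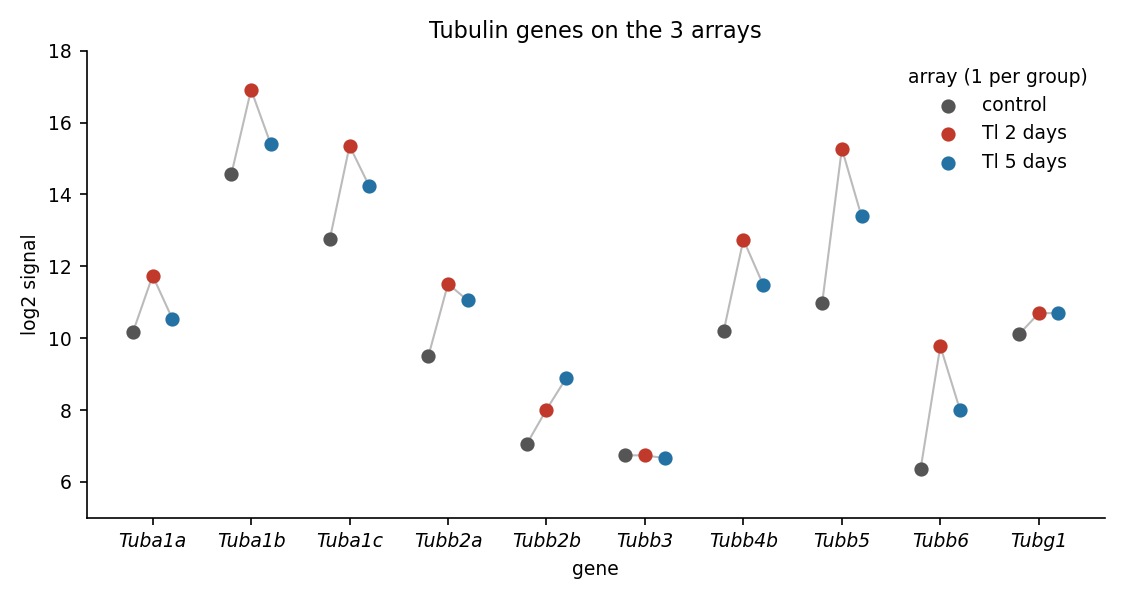
The log2 signal of each of the 10 tubulin genes on each of the 3 arrays, where each point is 1 array and the line joins the arrays of 1 gene. Signals of different genes come from different probes and are not comparable in level. For 7 genes the Tl 2 days array was the highest, and Tubb2b was highest at 5 days with 8.89.

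Negative control probe sets of the array also differed between arrays. Of 1153 of them, 8.33% exceeded control by over 2-fold at 2 days and 11.6% lay below it, and at 5 days these shares were 10.9% and 7.89%. Each share exceeds that among the genes, and what the probe sets measure is not given in the sources used here. At 2 days, 1 of the 1153 was higher than control by at least as much as Tubb5, 2 by as much as Tubb6, 3 by as much as Tuba1c and 42 by as much as Tuba1a. At 5 days the numbers for the 6 genes past the limit were 17 for Tubb5, 32 for Tubb2b, 42 for Tubb6, 49 for Tubb2a, 52 for Tuba1c and 73 for Tubb4b. Exactly equal values on the control and Tl 2 days arrays occurred for 19.8% of the genes, so an equal value is not a measure of how alike the samples were.

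Promoters of the tubulin genes are shown because most of the genes were higher together, and 6 of them were chosen: those with the largest differences at 2 days (Tubb5, Tubb6, Tuba1c and Tubb4b), Tubb2b, which was highest at 5 days, and Tubb3, whose signal was in the range of the background. Each is the 250 bases before the gene's start in RefSeq, build GRCr8, written 5′ to 3′ in the direction of the gene. Capitals mark matches on either strand to the CCAAT box, the TATA box (TATAAA), the GC box (GGGCGG), an E-box (CACGTG), a cyclic AMP response element (TGACGTCA) or a cell cycle element (TTTGAA), and 0 bases were shared between matches.
Tubb5 (chr20:2917327-2917576, plus strand): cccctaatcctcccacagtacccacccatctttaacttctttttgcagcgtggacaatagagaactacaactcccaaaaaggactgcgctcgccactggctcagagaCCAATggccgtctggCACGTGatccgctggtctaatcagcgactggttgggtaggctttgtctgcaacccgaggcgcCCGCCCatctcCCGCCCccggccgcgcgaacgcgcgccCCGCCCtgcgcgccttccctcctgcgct
Tubb6 (chr18:63213037-63213286, plus strand): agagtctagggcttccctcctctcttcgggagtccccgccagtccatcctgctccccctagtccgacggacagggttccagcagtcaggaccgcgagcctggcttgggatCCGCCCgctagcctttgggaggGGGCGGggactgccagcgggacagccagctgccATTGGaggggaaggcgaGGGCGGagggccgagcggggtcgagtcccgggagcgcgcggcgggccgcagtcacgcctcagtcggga
Tuba1c (chr7:132070734-132070983, plus strand): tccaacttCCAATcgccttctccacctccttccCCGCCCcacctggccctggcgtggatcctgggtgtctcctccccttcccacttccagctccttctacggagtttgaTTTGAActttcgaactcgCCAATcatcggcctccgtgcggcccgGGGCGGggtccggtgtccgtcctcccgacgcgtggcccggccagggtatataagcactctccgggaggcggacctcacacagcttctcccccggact
Tubb4b (chr3:28438456-28438705, minus strand): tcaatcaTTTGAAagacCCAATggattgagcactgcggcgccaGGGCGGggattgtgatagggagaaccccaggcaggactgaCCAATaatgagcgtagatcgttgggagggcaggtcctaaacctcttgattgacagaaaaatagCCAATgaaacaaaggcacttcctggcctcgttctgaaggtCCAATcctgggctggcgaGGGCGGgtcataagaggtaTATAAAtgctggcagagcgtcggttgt
Tubb2b (chr17:30952836-30953085, plus strand): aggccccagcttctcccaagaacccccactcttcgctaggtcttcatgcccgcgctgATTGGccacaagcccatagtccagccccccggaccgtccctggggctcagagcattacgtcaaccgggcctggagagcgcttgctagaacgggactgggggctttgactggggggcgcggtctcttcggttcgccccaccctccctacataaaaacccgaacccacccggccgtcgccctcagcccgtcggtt
Tubb3 (chr19:68365437-68365686, plus strand): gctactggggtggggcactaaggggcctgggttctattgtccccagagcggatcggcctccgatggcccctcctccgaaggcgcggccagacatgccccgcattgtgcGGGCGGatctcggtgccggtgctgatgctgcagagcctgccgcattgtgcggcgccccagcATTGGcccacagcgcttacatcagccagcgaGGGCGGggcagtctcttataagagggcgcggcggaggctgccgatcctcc

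CCAAT, the core of the box bound by NF-Y, was present in 9 of the 10 promoters and in 34.3% of the 27457 promoters of the same length. Tubb4b held 4 of these matches and Tuba1c 2, and Tubb2a held 0. GGGCGG, the GC box, was in 8 of the 10 and in 32.4% of all promoters, and Tubb2b and Tubg1 lacked it. CACGTG, an E-box that Myc and Max can bind, was in 1 promoter, that of Tubb5, where it began 128 bases before the start, and in 5.79% of all promoters. The exact string TATAAA was in the promoters of Tubb2a and Tubb4b, 2 of the 10, and in 13.1% of all. Other forms of the TATA box were not searched for, so a promoter without this string can still hold one. TGACGTCA, a site of the cyclic AMP response element type, was in Tubb2a only among the 10, and in 1.7% of all promoters. TTTGAA, an element of many cell cycle promoters, was in Tuba1c and Tubb4b and in 16% of all promoters. A match is a string of letters and not a site known to be used in the kidney.

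Tubb5 encodes the class I beta-tubulin, which most cells make. Its log2 signal was 10.98 on the control array, 15.28 at 2 days and 13.39 at 5 days. The Tl 2 days array was thus highest and the control array lowest, with differences from control of 4.30 and 2.41. By size of the positive difference Tubb5 ranked 33 of 15037 genes at 2 days and 122 at 5 days. From 2 to 5 days it was lower by 3.70-fold. Its control value was above that of all 63 ERCC probe sets, and 56 of the 1153 negative control probe sets reached it. For Tubb5, as for the other beta-tubulin genes, shared signal cannot be told apart, since the probe sequences were not used here. In the RefSeq order Tubb5 lies between Mdc1 and Flot1, whose differences from control were 1.25 and 1.04 at 2 days and 0.39 and 0.40 at 5 days, smaller than those of Tubb5. The next gene beyond Flot1, the early response gene Ier3, differed by 2.05 and 2.36.

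Tubb6 encodes the class V beta-tubulin, a widely expressed form that is usually a small part of the beta-tubulin pool. Its log2 signal was 6.36 in control, 9.78 at 2 days and 8.0 at 5 days, that is 10.7-fold and 3.11-fold above control. The control value was reached by 4 of 63 ERCC probe sets and by 625 of 1153 negative control probe sets, a dim signal on which both folds depend. With values below 6.83 raised to that floor, the differences were 2.95 and 1.17 in place of 3.42 and 1.64. Tubb4b, the class IVb beta-tubulin found in most tissues and in cilia, had log2 values of 10.20, 12.74 and 11.49, with differences from control of 2.54 and 1.29. It was 5.82-fold above control at 2 days and 2.44-fold at 5 days, and RefSeq names 4 pseudogenes of it.

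The 3 alpha-tubulin genes had the same order of arrays, highest at 2 days and lowest in control. Tuba1c, a widely expressed alpha-tubulin, had log2 values of 12.76, 15.35 and 14.23, or 6.02-fold and 2.77-fold above control. The identifier of its probe set reads as unmapped, whereas those of the other tubulin genes followed here carry a chromosome number. Tuba1b, another widely expressed form, had values of 14.57, 16.92 and 15.40, which were 5.08-fold and 1.77-fold above control. Tuba1a, best known as the alpha-tubulin of developing neurons, had values of 10.17, 11.74 and 10.54, or 2.97-fold and 1.29-fold. All 3 were over 2-fold higher at 2 days and only Tuba1c still was at 5 days. Of its log2 difference at 2 days, Tuba1c kept 56.7% at 5 days, Tuba1b 35.2% and Tuba1a 23.7%. Tuba1b and Tuba1a are neighbours on rat chromosome 7, and the genes on either side of them, Lmbr1l and Prph, differed from control by 0 and -0.10 at 2 days and by 0 and 0 at 5 days. Prph lay below 6.83 on each array, at 3.08 in control, and Lmbr1l had exactly equal values on all 3 arrays. Neither gene is thus a measure of how alike this region was on the arrays. Troap, the gene beyond Prph, differed by 1.66 and 0.23. The coding sequences of alpha-tubulin genes are very alike, and RefSeq names 14 pseudogenes of Tuba1b and 5 of Tuba1a. The probe sequences were not used here, so signal shared between these copies cannot be told apart.

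Tubb2a and Tubb2b are near-identical class II beta-tubulins and lie close together on rat chromosome 17, with Tubb2al1 between them, which is not named on the array. Both were over 2-fold higher than control at 5 days, but their arrays were ordered differently. Tubb2a had log2 values of 9.50 in control, 11.51 at 2 days and 11.05 at 5 days, with differences of 2.02 and 1.56. Tubb2b, known for its part in the migration of neurons, had values of 7.06, 8.01 and 8.89, and its differences of 0.96 and 1.83 were the only ones of the 10 genes to be clearly larger at 5 days. Its value at 2 days was just under the limit at 1.94-fold. Between the Tl arrays, Tubb2b was 1.83-fold higher at 5 days and Tubb2a was 1.38-fold lower. The probe sequences were not used, so signal shared between these near-identical genes cannot be told apart. The control value of Tubb2b was reached by 2 of 63 ERCC probe sets and by 469 of 1153 negative control probe sets. Its values at 2 and 5 days were reached by 290 and 190 of the negative control probe sets. On the other sides of this group of genes, Psmg4 beside Tubb2b differed from control by 0.28 and 0.89, and Bphl beside Tubb2a by -0.83 and -1.15.

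Tubg1 and Tubb3 did not pass the 2-fold limit at either time. Tubg1, the gamma-tubulin of the nucleating ring complex, had log2 signals of 10.11 in control, 10.69 at 2 days and 10.70 at 5 days. The Tl arrays were both about 1.5-fold above control and differed from each other by 0.01. Differences as large occurred in 203 of the 1153 negative control probe sets at 2 days. Tubb3, the class III beta-tubulin typical of neurons, had values of 6.74, 6.74 and 6.66. These were reached by 4 of 63 ERCC probe sets on each array, so a low level of Tubb3 was not distinguishable from background. All 10 measured marker genes of neurons were at or below 6.83 on each array, and their summed signal on a linear scale was 218 in the control group, 163 at 2 days and 202 at 5 days.

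Compared directly, which leaves out the control array, 6 of the 10 genes were over 2-fold lower at 5 days than at 2 days and 0 were higher. Of all genes 3.07% were over 2-fold lower and 2.21% higher in this comparison. The differences were -1.89 for Tubb5, -1.78 for Tubb6, -1.52 for Tuba1b, -1.25 for Tubb4b, -1.20 for Tuba1a and -1.12 for Tuba1c. Tubb2a followed with -0.46, Tubb3 with -0.08, Tubg1 with 0.01 and Tubb2b with 0.87. All 3 alpha-tubulin genes were thus in the lower group, while the 6 beta-tubulin genes ranged from -1.89 to 0.87. At 2 days the lowest log2 value among the 6 genes past the limit was 9.78 (Tubb6), above the highest ERCC value of 9.28. It was reached by 109 of 1153 negative control probe sets.

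**Figure D2:**
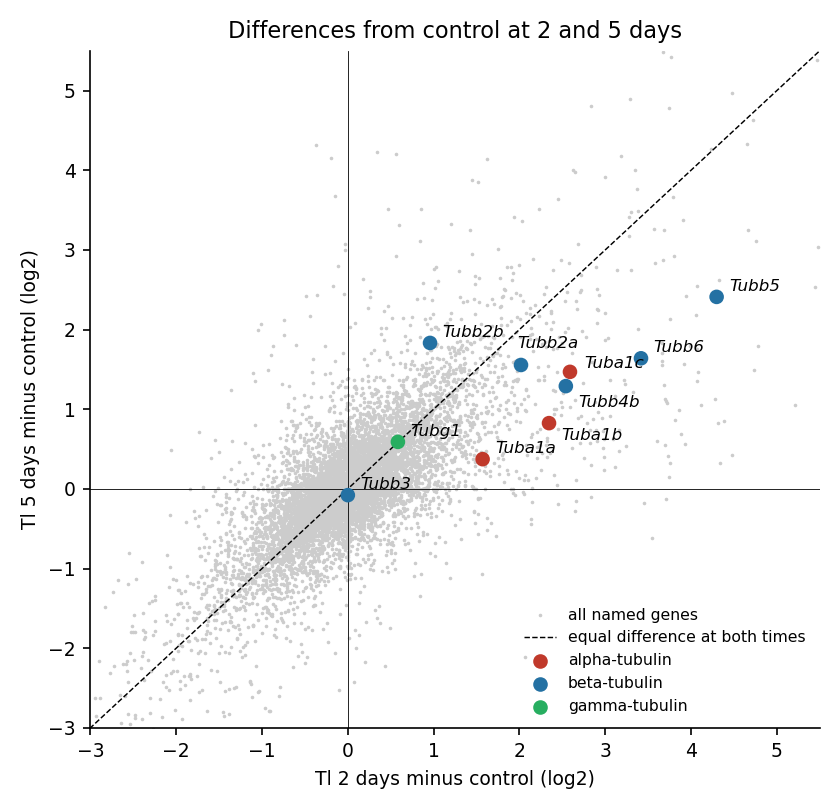
The log2 difference from control at 2 days (x axis) and at 5 days (y axis) for the 10 tubulin genes, coloured by subunit, and for all 15037 named genes in grey, of which 111 lie outside the axes. Points below the dashed line had a smaller difference at 5 days, as 7 of the tubulin genes clearly did, and Tubb2b lies above it at 0.96 and 1.83.

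Among the 5 genes outside the lists used here with a pattern nearest to that of Tubb5, by the distance over its differences at 2 and 5 days, were Cyp1b1 (4.07 and 2.55), Ugt2b7 (4.05 and 2.19), Cxcl11 (3.94 and 2.43) and Slc10a2 (3.75 and 2.13). The pattern consists of 3 arrays only. Cxcl11 encodes a chemokine, and the control values of Cyp1b1, Cxcl11 and Slc10a2 were below 6.83, whereas that of Tubb5 was 10.98.

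Other tubulin genes were listed beside the 10. Of 10 such genes, 7 were measured, and 1, Tuba4a, was over 2-fold higher at 2 days, with 0 lower and 0 past the limit at 5 days. Tuba4a encodes an alpha-tubulin whose message does not encode the final tyrosine. Its log2 values were 12.29, 13.32 and 13.11, a difference of 1.03 at 2 days that was 0.90 after centring of the arrays, 0.98 after quantile normalization and 0.81 relative to reference genes. The other 6 (Tuba3a, Tuba3b, Tuba8, Tubal3, Tubb4a and Tubd1) were at or below 6.83 on all 3 arrays, with differences from control between -0.34 and 0.28. The measured list holds the testis-type Tuba3a and Tuba3b and the brain-type Tubb4a. The choice of the 10 genes was made with results of these arrays known, so their share past the limit is not independent of those results.

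Genes that act on tubulin were compared with the tubulin genes by list. The nascent subunits are folded by prefoldin and the CCT chaperonin. Of 14 such genes 12 were measured, with a median difference of 0.60 at 2 days and 0.54 at 5 days. At 2 days 3 were over 2-fold higher and 0 lower, namely Cct4 (1.28), Cct3 (1.24) and Tcp1 (1.02), and at 5 days only Cct3 was (1.09). Tcp1 was under the limit under all 3 scalings, at 0.89 after centring, 0.999 after quantile normalization and 0.80 relative to reference genes, and Cct3 at 5 days was so relative to reference genes (0.88). The tubulin cofactors assemble the heterodimer after folding, and all 7 were measured, with medians of 0 and 0. Both medians fell on genes with exactly equal values on the arrays compared, such as Tbcc and Arl2. Over the scalings and the floor the medians ranged from -0.22 to 0 and from -0.21 to 0. Tbcel, which can destabilize tubulin, was over 2-fold lower at 2 days (-1.01), and the highest difference at that time was 0.44 for Tbce. In the autoregulation of tubulin mRNA, Ttc5 differed by -0.31 and 0 and Cnot11, a subunit of the Ccr4-Not deadenylase, by 0 and 0. These differences of 0 are exactly equal values, which are not a measure of how alike the samples were.

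Of 19 genes of the gamma-tubulin ring complex and of augmin, which places it on existing microtubules, 13 were measured and 0 passed the limit at either time. Their median difference was 0.35 at 2 days and -0.16 at 5 days, and the largest was 0.67 for Nedd1, which targets the complex to the centrosome. Tubgcp2, a core subunit, differed by 0.63 and 0.11. Enzymes that modify tubulin were measured for 14 of 28 listed genes, with medians of 0 and -0.05, and 1 was higher and 1 lower past the limit at each time. Ttll12 differed from control by 1.65 and 1.22. Ttll10, of the tubulin tyrosine ligase-like family, differed by -1.50 at 2 days, and Ttll3, a glycylase, by -1.28 at 5 days from a dim control value of 6.01, and its difference was 0 with the floor. Ttl, the ligase that adds the final tyrosine to alpha-tubulin, differed by 0.83 and 0.39.

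Of 26 genes of proteins that stabilize microtubules or act at their plus ends, 23 were measured, with medians of 0.03 and 0.08. At 2 days 4 were over 2-fold higher and 0 lower, and at 5 days 2 were higher and 0 lower. Over the scalings and the floor the numbers higher were 2 to 4 and 1 to 2. Tacc3, a protein of the mitotic spindle, had log2 values of 5.71, 9.99 and 6.84, while Map1b, a microtubule-binding protein prominent in neurons, had 5.83, 7.61 and 7.98. The control values of both were below 6.83, and with the floor the difference of Map1b at 2 days was 0.79 and that of Tacc3 at 5 days 0.01, both under the limit. Mapre1, a plus-end tracking protein, differed by 1.09 and 0.07 and Map4, the main microtubule-associated protein of non-neuronal cells, by 1.08 and 0.77. Both were under the limit at 2 days after centring of the arrays, at 0.97 and 0.95. Of 15 genes of destabilizing and severing proteins 12 were measured, with medians of 0.21 and 0.06, and 3 were higher and 2 lower past the limit at 2 days, against 0 and 2 at 5 days. Stmn1, which sequesters tubulin heterodimers, had values of 11.80, 13.86 and 11.97. The kinesins Kif18a and Kif2c, which shorten microtubules in mitosis, differed by 3.16 and 2.10 at 2 days and by 0.74 and 0.11 at 5 days, both from dim control values, and with the floor the difference of Kif2c was 0 at both times. Katnal1, of the katanin family of severing proteins, differed by -1.24 and -1.41. Fign, which encodes the severing protein fidgetin, lay at 4.77 in control with differences of -1.06 and -1.10, which were 0 with the floor.

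**Figure D3:**
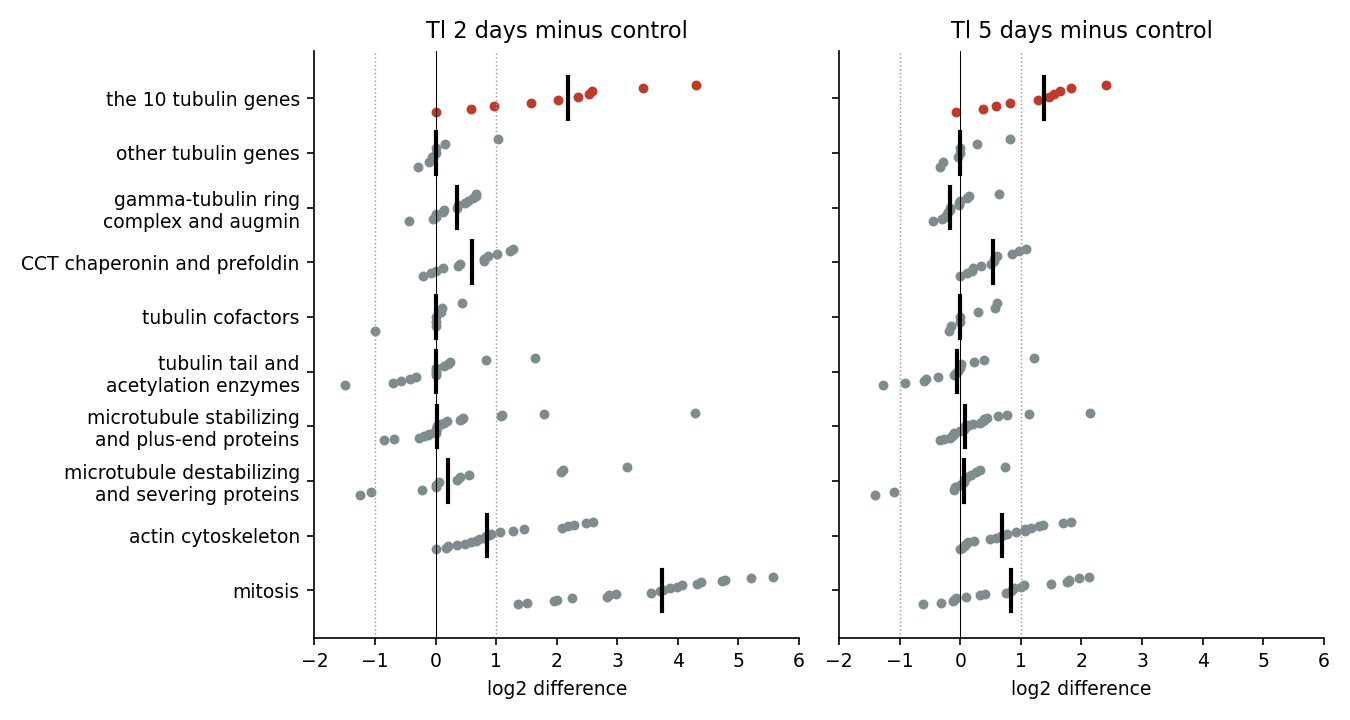
The log2 difference from control of each measured gene in 10 lists, at 2 days (left) and 5 days (right), where points are genes, black bars are the medians of the lists and dotted lines mark 2-fold. The 10 tubulin genes, in red, had medians of 2.18 and 1.38, between those of the mitosis list (3.73 and 0.84) and the actin list (0.85 and 0.69) at 2 days.

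Genes of mitosis were higher on the same arrays as the tubulin genes. All 20 measured genes of that list were over 2-fold higher at 2 days, with a median difference of 3.73, and 7 were at 5 days, with a median of 0.84. The summed signal of the list on a linear scale was 2841 in the control group, 37579 at 2 days and 8023 at 5 days, and 15 of the 20 genes were at or below 6.83 in the control group. With the floor the medians of the list were 2.17 and 0, and over the scalings and the floor 18 to 20 genes were past the limit at 2 days and 3 to 7 at 5 days. Mki67, a marker of cycling cells, had log2 values of 8.71, 13.91 and 9.76. Of 20 genes of the actin cytoskeleton all were measured, with medians of 0.85 and 0.69, and 8 were over 2-fold higher at 2 days and 7 at 5 days. Over the scalings and the floor these numbers were 7 to 8 and 4 to 7. Tpm4, a tropomyosin, differed by 2.29 and 1.36 and Myh9, a non-muscle myosin heavy chain, by 2.18 and 1.06, the latter under the limit after quantile normalization (0.95) and relative to reference genes (0.85).

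Markers of tubule segments and of other cells also differed between the arrays. All 6 genes of the distal nephron were over 2-fold lower at both times, with medians of -2.56 and -3.28. The 9 measured proximal tubule genes had medians of -0.37 and 0.04, the second of which was below 0 under some scalings, with 0 higher and 1 lower past the limit at 2 days and 3 higher and 2 lower at 5 days. Among them Slc5a12, a lactate transporter, was 3.07 above control at 5 days, Cubn, an endocytic receptor, 2.15 and Slc22a8 1.33. The 2 lower genes at 5 days were Slc34a1 (-1.44) and Pdzk1 (-1.26), and Slc34a1 was also the lower gene at 2 days (-1.19). In the macrophage list, 5 of 12 genes were over 2-fold higher at 2 days and 6 at 5 days, with medians of 0.96 and 1.17, and over the scalings and the floor 3 to 6 genes were past the limit at each time. With the floor Itgam, Cd14 and C1qc were under the limit at 5 days. The summed signal of the list was 2109 in the control group, 6292 at 2 days and 4819 at 5 days, with 9, 5 and 4 of the 12 at or below 6.83. Its brightest gene was Ptprc, the leukocyte antigen CD45, and without it, a choice made after its values were seen, the sums were 852, 1652 and 2698, highest at 5 days. The 10 genes of fibroblasts and smooth muscle had medians of 0.56 and 0.11, with 3 over 2-fold higher at 2 days (1 to 3 over the scalings and the floor), and 2 higher and 1 lower at 5 days. Their sums were 28234, 53927 and 57946, and without the brightest gene, Dcn, a proteoglycan of the matrix, 14539, 23718 and 20882. The 9 endothelial genes had sums of 33618, 36432 and 17630, or 22750, 17362 and 10311 without the brightest gene, Eng, and 3 were over 2-fold lower at 5 days. All 8 measured genes of motile cilia were at or below 6.83 on each array. Of 11 measured injury genes of the tubule, 9 were over 2-fold higher at 2 days and 8 at 5 days. Their median differences were 2.31 and 2.53. The summed signal of this list was 12484 in the control group, 1196540 at 2 days and 929298 at 5 days. Without its brightest gene, Spp1, the sums were 6194, 629298 and 563700. The median was thus not lower at 5 days than at 2 days, whereas the sums were. The part of dividing cells, macrophages and injured tubule cells in the tubulin differences was not tested.

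**Figure D4:**
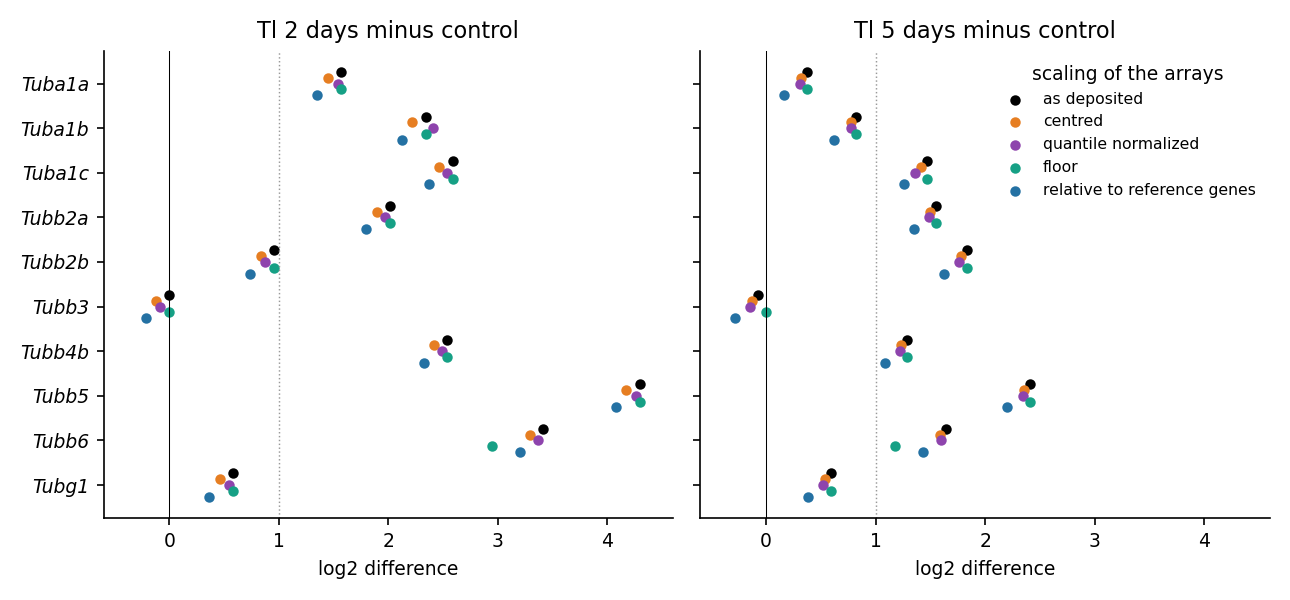
The log2 difference from control of each tubulin gene at 2 days (left) and 5 days (right) as deposited and under 4 alternatives, 3 of them scalings and 1 a floor, with the 2-fold limit dotted. The number of genes past the limit was 7 at 2 days and 6 at 5 days under each, and Tubb5 ranged from 4.08 to 4.30 at 2 days.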

How the data were processed

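Total RNA of rat kidney was measured on 3 Clariom S arrays, 1 per group, and groups were taken from the sample titles. The deposited values are log2 signals of 24834 probe sets, as processed by the authors. The methods name Transcriptome Analysis Console for the analysis, and its version, the summarization and the normalization are not given in the sources used here. The annotation gave 15049 probe sets a single symbol and left 9785 unnamed here. Probe sets of one gene were averaged, which gave 15037 genes, and all 10 members matched a RefSeq gene (GRCr8) of the same symbol.

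Differences of log2 values between arrays, counts past 2-fold and medians of 21 gene lists were computed. With 1 array per group no test was made, and precision is limited by the number of arrays. The members and lists were chosen with earlier results of these data known. Named genes are the members, the other measured tubulin genes, genes a list is known for, up to 4 genes per list with the largest absolute difference from control, and the 5 genes outside the lists nearest to the member with the largest difference at 2 days, of which 1, the closest, is not reported here. The neighbouring genes were named by position. Alternatives were centring on the median of the genes, quantile normalization, a floor at the ERCC 95th percentile, values relative to reference genes, limits of 1.5-fold and 3-fold, a filter at the 40th percentile and the probe set with the highest mean. The counting procedure was checked on simulated arrays. The software was matplotlib 3.10.9 for the figures and pandas 2.3.3 with numpy 2.4.6 for the values, under Python 3.11.15.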

Additional observations from a re-analysis of the deposited data

Results flagged for a closer look

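The median log2 difference of the 13 measured genes of the gamma-tubulin ring complex and augmin was 0.35 at 2 days and -0.16 at 5 days, so the sign differed between the times. Haus7, an augmin subunit of this list, differed from control by 0.54 and -0.20. These differences between the Tl groups were not tested, since each has 1 array, and with the floor the median at 5 days was 0. Groups of 1 array cannot show an outlying sample. No tubulin gene had opposite signs at 2 and 5 days with both differences over 0.1.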

How the results depend on the processing

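The numbers of tubulin genes past the limit and their median differences kept their direction in each of the alternatives run. With a 3-fold limit, 3 genes were past it at 5 days against control (Tubb5, Tubb2b and Tubb6) and 2 between the Tl arrays (Tubb5 and Tubb6), in place of 6 and 6 at 2-fold. In the other 34 of 36 alternatives for these counts and medians the value stayed within 1.5-fold. The filter could not change the counts, since all 10 genes passed it. Nor could the choice of probe set, since each gene had 1 probe set. The median difference of the 10 genes ranged from 1.96 to 2.19 at 2 days and from 1.17 to 1.38 at 5 days. In the 120 alternatives for single tubulin genes, a log2 difference moved by at most 0.47, 0 crossed the 2-fold limit and 1 changed sign, that of Tubg1 between the Tl arrays (0.01, and -0.02 after quantile normalization). The median of all genes was shifted by -0.12 at 2 days by centring and by -0.22 and -0.21 at 2 and 5 days relative to reference genes. All 10 genes passed the filter at the 40th percentile. No paired analysis was possible because each group has 1 array, and no replicate could be left out. Low signals limit the folds of Tubb6, Tubb2b and Tubb3, whose control values were reached by some ERCC probe sets. The median, 95th percentile and highest value of the ERCC probe sets were equal on all 3 arrays. They thus do not show how background differed between arrays. Negative control probe sets, some of which were bright, also reached the control values of the other genes. Of 1153, 133 reached that of Tubb2a, 96 Tubg1, 90 Tuba1a, 89 Tubb4b, 56 Tubb5, 26 Tuba1c and 16 Tuba1b.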
